A study of Mus musculus with 12 samples.

Results

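The genes of 9 chemokine receptors (Ccr2, Ccr4, Ccr6, Ccr7, Ccr9, Cxcr3, Cxcr4, Cxcr5 and Cxcr6) were followed across sorted mouse T lineage cells. They were found by symbol among the 33696 genes of the files, where each of the 9 occurs. Single cells were profiled with 10x Genomics 3′ chemistry in 3 compartments: γδ T cells from the spleen (CD3+ CD4neg), γδ T cells from the thymus (CD8negCD4neg) and thymic precursors of stages DN1 to DN3, sorted together. The adult mice were labelled WT or GFI1 KO, and the KO mice lack GFI1, a transcriptional repressor of blood cells, in the whole animal, so that an effect within the T cell cannot be told apart from one of its surroundings. Cells of both genotypes were given different hashtags, mixed and run as 1 pool, and the 6 pools were split by hashtag into 12 libraries, with 2 labelled WT and 2 labelled KO in each compartment. Nothing in the labels says how many animals a library holds or whether libraries of a group came from separate animals, so p-values measure the spread between libraries only.

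Chemokine receptors are seven-helix proteins that couple to inhibitory G proteins and steer cells along chemokine gradients. CCR9 and CCR7 serve thymic precursors and naive T cells, CXCR4 reads the CXCL12 of marrow and thymic stroma, and CXCR5 reads the CXCL13 of B cell follicles. CCR2, CCR6 and CXCR6 are receptors of effector cells for the ligands CCL2, CCL20 and CXCL16, and CCR6 and CCR2 are known from IL-17-producing γδ T cells (γδT17), while CXCR3 marks type 1, interferon-producing cells.

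The libraries held 42091895 to 71663962 UMIs (single counted transcripts) in 6795 to 11679 cells, with median depths of 4947 to 6853 UMIs per cell. Levels are given as CPM, a gene's share of all UMIs of its library on the usual CPM scale. Libraries labelled KO did not hold less Gfi1 RNA (1.01 to 1.76 times the level of the WT library of the same pool in 6 of 6 pools), so genotypes are named by label only. Xist was at 0 to 0.374 CPM in splenic and at 739 to 1600 CPM in thymic libraries, so that tissue and the sex of the mice cannot be told apart in comparisons of spleen with thymus. Ddx3y, a gene of the Y chromosome, was found in all 12 libraries, and in DN cells it was at 28.0 and 26.0 CPM in WT and 11.6 and 14.2 CPM in KO, so that a different mix of sexes cannot be told apart from the label there. The 5 γδ T cell marker genes summed to 3072 to 5015 CPM in the γδ T libraries and to 2006 to 2144 CPM in the DN libraries. Among them Trdc was at 1233 to 2051 CPM in the γδ T and at 126 to 199 CPM in the DN libraries. The 7 markers of DN thymocytes summed to 1619 to 2256 CPM in the DN libraries, against 113 to 285 CPM in the γδ T libraries. Markers of other cells moved with the label: the summed NK cell markers were 176 and 178 CPM in WT and 471 and 489 CPM in KO spleen. Within that list Klrk1 (133 and 138 to 266 and 307 CPM) and Gzmb (8.91 and 6.84 to 199 and 176 CPM) were higher, while Klrb1c (31.1 and 30.7 to 6.58 and 5.94 CPM) and Ncr1 (3.06 and 2.22 to 0.0641 and 0.0432 CPM) were lower in KO spleen. The 8 myeloid and dendritic markers summed to 137 and 121 CPM in WT and 317 and 340 CPM in KO spleen, to 114 and 108 against 196 and 182 CPM in the thymus and to 103 and 106 against 168 and 161 CPM in DN cells. Cst3 made most of each sum (102 and 90.7 to 312 and 337 CPM in the spleen), while Csf1r was at 0.499 CPM or less and Itgax at 1.09 CPM or less in all 12 libraries. Fcer1g went the other way in the spleen (29.1 and 27.6 to 3.08 and 2.04 CPM) and the thymus (16.2 and 16.2 to 9.33 and 5.42 CPM). In DN cells Fcer1g rose from 7.99 and 5.55 to 30.5 and 29.8 CPM. Both red cell markers together went from 27.8 and 24.1 to 115 and 48.8 CPM in the spleen and were at 0.0324 CPM or less in the thymic libraries. The part of these cells in the results was not tested. In such sums fewer cells of a type and less RNA per cell cannot be told apart.

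The genes of Ccr2, Cxcr6 and Ccr9 are shown by sequence because they are neighbours on mouse chromosome 9 and because Ccr2 and Cxcr6 were higher in every KO group while Ccr9 was lower. The 300 bases around the start of each gene (RefSeq, GRCm38.p6, plus strand) are given with letters in capitals where AAATCA or AATCAC, which hold the AATC core bound by GFI1, occurs on either strand.
Ccr2, chr9:124101933-124102232: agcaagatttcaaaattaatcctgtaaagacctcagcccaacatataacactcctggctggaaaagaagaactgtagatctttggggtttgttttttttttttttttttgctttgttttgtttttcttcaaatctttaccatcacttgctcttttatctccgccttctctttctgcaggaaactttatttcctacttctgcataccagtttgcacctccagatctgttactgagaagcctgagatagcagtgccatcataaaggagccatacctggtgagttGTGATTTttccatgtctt
Cxcr6, chr9:123806227-123806526: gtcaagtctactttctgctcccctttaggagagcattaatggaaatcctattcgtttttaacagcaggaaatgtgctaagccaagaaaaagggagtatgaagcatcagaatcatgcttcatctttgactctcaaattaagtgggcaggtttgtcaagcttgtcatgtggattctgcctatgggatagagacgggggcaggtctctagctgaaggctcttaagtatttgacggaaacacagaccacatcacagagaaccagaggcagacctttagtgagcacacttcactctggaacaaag
Ccr9, chr9:123766961-123767260: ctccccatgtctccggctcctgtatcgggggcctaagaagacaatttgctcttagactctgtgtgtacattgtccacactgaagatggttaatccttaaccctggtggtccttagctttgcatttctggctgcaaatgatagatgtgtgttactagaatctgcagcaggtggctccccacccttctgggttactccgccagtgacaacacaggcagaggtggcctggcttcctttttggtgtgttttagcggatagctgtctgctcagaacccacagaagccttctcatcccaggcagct
In the Ccr2 window both motifs overlap in 1 run on the minus strand, and the other windows shown hold neither. Of the members with a promoter that are not shown, Ccr6, which was lower in KO spleen, also has AAATCA in 1 of its 2 windows. AAATCA occurred in 14.0% and AATCAC in 10.4% of 32851 RefSeq promoters of this length. RefSeq promoters were found for 7 of the 9 genes, and the match of letters is a description of the window, not a binding site.

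In splenic γδ T cells the receptors split into 2 sets. The transcripts of Cxcr6, Ccr2 and Ccr4 were higher in the libraries labelled KO, and those of Ccr6, Ccr7, Ccr9, Cxcr3, Cxcr4 and Cxcr5 were lower. All 9 of 9 genes passed the test (edgeR quasi-likelihood F test, adjusted p under 0.05), with a median log2 difference of -2.43, where 54.8% of the 14923 genes tested were called and the median of all genes was 0.00.

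Cxcr6, the CXCL16 receptor of resident T cells, was at 174.9 CPM in both WT libraries and at 1596 and 1512 CPM in the KO libraries. The KO values lay far above the WT values, a log2 difference (KO minus WT throughout) of 3.25 ± 0.39 (SE, n = 2 and 2, edgeR adjusted p = 8.01e-05). After each cell was thinned to 3000 UMIs, 96.6% ± 0.462 (SD, n = 2) of the KO cells held a Cxcr6 UMI against 30.8% ± 0.338 of the WT cells, and without thinning the shares were 98.0% and 39.5%. Ccr2, which draws cells towards CCL2, stood at 87.5 and 69.6 CPM in WT and at 937 and 844 CPM in KO libraries. The groups did not overlap (log2 difference 3.60 ± 0.42, edgeR adjusted p = 5.90e-05), and the thinned share of cells went from 11.5% ± 1.27 to 90.5% ± 0.894. Among cells with at least 1 UMI the mean count also differed, at 9.47 Cxcr6 UMIs per cell in KO and 2.37 in WT, and 5.54 and 2.97 for Ccr2. Ccr4, the receptor of CCL17 and CCL22, was low in every splenic library, at 3.42 and 2.72 CPM in WT and 8.50 and 10.2 CPM in KO (log2 difference 1.71 ± 0.41, edgeR adjusted p = 0.00576). This call was lost in 1 of 11 alternative analyses, at an edgeR adjusted p of 0.0506 when the second WT library was left out.

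Of the 6 receptors that were lower in the spleen Ccr9 and Ccr7 had the largest log2 differences. Ccr9, the CCL25 receptor of thymus and gut, fell from 171 and 160.0 CPM in WT to 7.07 and 5.99 CPM in KO libraries, a log2 difference of -4.57 ± 0.20 (edgeR adjusted p = 1.03e-07). Ccr7, the lymph node homing receptor for CCL19 and CCL21, fell from 52.4 and 56.0 CPM to 2.88 and 2.14 CPM (-4.35 ± 0.20, edgeR adjusted p = 1.52e-07). Both genes were near the floor in KO libraries, with a UMI in 1.39% ± 0.0254 and 0.590% ± 0.0943 of the thinned cells against 25.4% ± 1.08 and 14.8% ± 0.720 in WT. Cxcr5 was low in WT (7.34 and 9.58 CPM) and lower in KO libraries (0.748 and 0.518 CPM; -3.66 ± 0.33, edgeR adjusted p = 8.42e-06). Cxcr3, the receptor for CXCL9 and CXCL10, went from 50.4 and 63.9 CPM to 9.40 and 4.36 CPM (-2.97 ± 0.52, edgeR adjusted p = 0.000881). Cxcr4, which reads CXCL12, had the smallest difference of the 6, from 82.3 and 68.7 CPM to 28.0 and 27.5 CPM (-1.35 ± 0.12, edgeR adjusted p = 8.27e-06). Ccr6, the CCL20 receptor, was at 17.8 and 13.7 CPM in WT and at 3.40 and 2.13 CPM in KO libraries (-2.43 ± 0.48, edgeR adjusted p = 0.00194), the reverse of the direction of Ccr2 and Cxcr6.

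The summed markers of B cells and of αβ T cells, which use CXCR5, CCR7 and CXCR4, were lower in the same KO libraries. The 8 B cell markers summed to 443 and 224 CPM in WT and 121 and 63.8 CPM in KO spleen. Ighm made most of the sum in WT and fell from 411 and 195 to 67.6 and 10.5 CPM, while Cd79b went the other way, from 27.9 and 23.7 to 50.9 and 50.8 CPM. The 6 αβ T cell markers went from 1745 and 1806 to 1031 and 993 CPM, with Cd8b1 at 112 and 100.1 against 5.38 and 4.4 CPM and Cd4 at 0.0950 CPM or less. Most of that sum was Trbc1 (557 and 592 to 274 and 297 CPM) and Trbc2 (937 and 1015 to 696 and 631 CPM). The part of αβ T cells in the result was not tested. Without the cells that held UMIs of 2 or more B cell genes, 9 of 9 receptors were called (3 higher, 6 lower, median -2.42), where 55.1% of all genes were called. The cells left out were 6.68% and 7.01% of the WT cells and held Cxcr5 at 4.93 and 9.19 CPM, near the level of all WT cells. Leaving them out can thus hardly show the part of B cells, which was not tested.

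In thymic γδ T cells Cxcr6 and Ccr2 again stood higher and Ccr9, Ccr7 and Cxcr4 lower in the libraries labelled KO, but Ccr6 was higher rather than lower. In this compartment 7 of 9 genes passed the test (4 higher, 3 lower), against 49.7% of all genes tested. Summed markers of other cells moved with the label here too, αβ T cells from 3175 and 3262 to 1531 and 1303 CPM, B cells from 158 and 156 to 82.0 and 64.5 CPM and NK cells from 12.8 and 12.6 to 140 and 136 CPM. Without the cells that held UMIs of 2 or more B cell genes, 7 of 9 receptors were called (4 higher, 3 lower), against 50.9% of all genes. The part of B, αβ T and NK cells was not tested. Most of the αβ T cell sum was Trbc1 (1334 and 1288 to 565 and 472 CPM) and Trbc2 (1771 and 1909 to 912 and 776 CPM). Trac was at 62.9 and 54.3 CPM in WT and 51.2 and 51.5 CPM in KO thymus, with Cd4 and Cd8a at 2.72 CPM or less. The same list summed to 1989 to 2160 CPM in the DN libraries, so it does not mark αβ T cells alone. The B cell sum fell through Ighm (139 and 137 to 54.7 and 37.3 CPM), while Cd79b was higher (18.0 and 17.7 to 26.5 and 25.7 CPM). The NK cell sum rose mostly through Klrk1 (7.67 and 8.01 to 108 and 118 CPM), with Klrb1c at 4.11 and 3.25 in WT and 13.2 and 3.04 CPM in KO. Cxcr6 was at 45.8 and 49.6 CPM in WT and at 1029 and 1138 CPM in KO libraries, with no overlap (log2 difference 4.63 ± 0.42, edgeR adjusted p = 2.19e-05). Ccr2 was at 23.2 and 28.4 CPM in WT and at 469.9 and 572 CPM in KO libraries (4.46 ± 0.44, edgeR adjusted p = 3.32e-05). Ccr6 stood at 4.56 and 6.18 CPM in WT and at 16.1 and 25.6 CPM in KO libraries (2.09 ± 0.46, edgeR adjusted p = 0.00408). Each of the 3 genes was higher in both KO libraries than in either WT library.

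Ccr9 was abundant in WT thymic γδ T cells, at 941 and 806 CPM, and fell to 205 and 144 CPM in KO libraries (-2.21 ± 0.17, edgeR adjusted p = 8.99e-06), with a UMI in 69.3% ± 2.18 of the thinned WT cells and 16.1% ± 2.71 of the KO cells. Ccr7 went from 30.5 and 28.9 CPM to 16.3 and 10.6 CPM (-1.03 ± 0.17, edgeR adjusted p = 0.000679), and Cxcr4 from 61.5 and 58.0 CPM to 35.8 and 35.4 CPM (-0.62 ± 0.12, edgeR adjusted p = 0.00158). Both were lower in each KO library, by less than Ccr9 on the log2 scale. Cxcr3 was scarce, at 1.58 and 1.37 CPM in WT and 7.67 and 2.27 CPM in KO libraries, and its call (1.86 ± 0.57, edgeR adjusted p = 0.0215) held in 7 of 11 alternative analyses and was lost without either WT library (0.0817 and 0.112) or the first KO library (0.325). Ccr4 did not pass (18.3 and 18.9 CPM in WT, 24.7 and 11.6 CPM in KO, log2 difference 0.07 ± 0.38, edgeR adjusted p = 0.900), and neither did Cxcr5 at 0.838 to 1.68 CPM (0.34 ± 0.32, edgeR adjusted p = 0.405). The KO libraries of Ccr4 lay on both sides of the WT libraries.

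The joint sort of DN1 to DN3 precursors held the receptors at low levels in WT, other than Ccr9 and Cxcr4. Here 8 of 9 genes passed the test (7 higher, Ccr9 lower), where 23% of all genes were called. Cxcr6 rose from 15.6 and 14.5 CPM to 333 and 104 CPM (3.83 ± 0.41, edgeR adjusted p = 0.000232), and Ccr2 from 5.57 and 6.48 CPM to 141 and 45.2 CPM (3.92 ± 0.43, edgeR adjusted p = 0.000281). Ccr6 rose from 0.938 and 1.25 CPM to 29.9 and 9.74 CPM (4.14 ± 0.53, edgeR adjusted p = 0.000578). For each of the 3 genes the first KO library stood well above the second, and both stood above the WT libraries. Ccr7, at 0.663 and 0.706 CPM in WT and 5.21 and 4.66 CPM in KO libraries, rose in both KO libraries to a like degree (2.84 ± 0.22, edgeR adjusted p = 3.47e-05).

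Cxcr3 in the DN sort went from 2.10 and 2.25 CPM to 19.9 and 9.37 CPM (2.72 ± 0.54, edgeR adjusted p = 0.00591) and Ccr4 from 1.28 and 0.899 CPM to 9.56 and 3.68 CPM (2.58 ± 0.45, edgeR adjusted p = 0.00287). Cxcr5 was near 1 CPM in every library (0.599 and 0.514 CPM in WT, 1.41 and 0.995 CPM in KO), and its call (1.10 ± 0.34, edgeR adjusted p = 0.0394) held in 6 of 13 alternatives and was lost without either WT library (0.142 and 0.170) or the first KO library (0.200), without the cells that held UMIs of 2 or more B cell genes (0.0542) and with only the compared libraries (0.0552). Cxcr3 was lost without the first WT (0.0600) or the first KO library (0.107). Ccr9 was the only called gene that was lower, from 90.6 and 87.8 CPM to 38.5 and 27.6 CPM (-1.44 ± 0.17, edgeR adjusted p = 0.000332). Cxcr4 did not pass, at 84.2 and 78.0 CPM in WT and 66.4 and 77.3 CPM in KO libraries (-0.17 ± 0.12, edgeR adjusted p = 0.332), except without the second KO library (-0.38, edgeR adjusted p = 0.0224). The groups of Cxcr4 lay close together without overlap.

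The DN libraries labelled KO also held more cells with T cell receptor α transcripts: a Trac UMI was present in 2458 and 1356 KO cells against 511 and 488 WT cells, and Cxcr6 was at 674 and 443 CPM in those KO cells. Other genes of the αβ T cell list did not rise with Trac: Trbc1 went from 724 and 771 to 563 and 686 CPM and Trbc2 from 1331 and 1357 to 1262 and 1271 CPM. The 6 αβ T cell markers summed to 2082 and 2160 CPM in WT and 1989 and 2029 CPM in KO. In the cells without a Trac UMI, 5 of 9 genes passed (11.8% of all genes), and Ccr2 (log2 difference 4.22, edgeR adjusted p = 0.0597), Cxcr6 (4.13, edgeR adjusted p = 0.0641) and Cxcr5 did not, although Cxcr6 was at 158 and 42.0 CPM in KO against 6.72 and 4.54 CPM in WT. In cells with UMIs of both Ptcra and Il2ra, genes of DN2 and DN3 precursors, 4 of 9 passed (Ccr6, Ccr7, Cxcr3 and Ccr9), with 14.0% of all genes called. Ccr2 (2.78, edgeR adjusted p = 0.177) and Cxcr6 (2.98, edgeR adjusted p = 0.252) did not pass there, and Cxcr6 UMIs were found in 12.3% and 4.52% of these KO cells against 4.45% and 2.13% of the WT cells (median depths 6320 to 7118 UMIs per cell, against 5590.5 to 6231 in all DN cells). Both restrictions were chosen after the values had been seen. Summed markers moved with the label in the DN sort as well: those of NK cells were at 23.2 and 18.8 CPM in WT and 153 and 84.2 CPM in KO, those of B cells at 115 and 122 against 137 and 264 CPM, and those of DN thymocytes at 2256 and 2170 against 1619 and 1995 CPM. Within the DN thymocyte list Dntt fell (787 and 850 to 492 and 553 CPM), while Rag1 rose (203 and 216 to 224 and 318 CPM). Ptcra lay on both sides (102 and 126 CPM in WT, 95.4 and 168 CPM in KO). Without the cells that held UMIs of 2 or more B cell genes, 7 of 9 receptors were called (6 higher, 1 lower, median 2.65), against 22.4% of all genes. The part of B and NK cells and of the stage of the precursors was not tested.

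**Figure D1:**
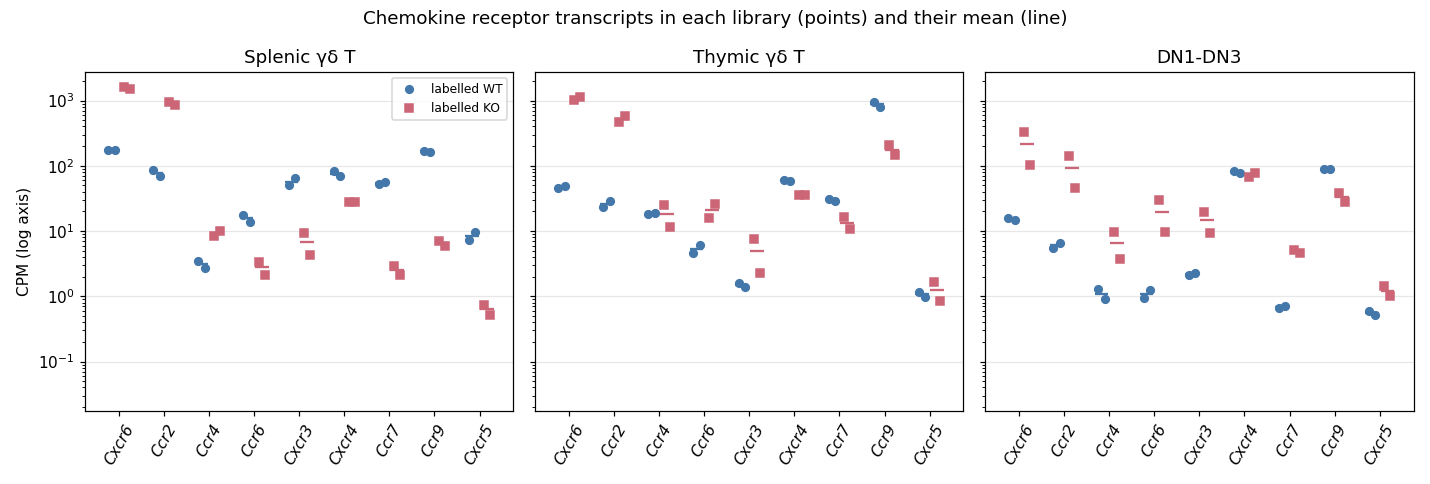
CPM of the 9 receptors on a log axis in each library (points) with the mean of the 2 libraries (line), in splenic γδ T, thymic γδ T and DN1-DN3 cells. Blue marks the libraries labelled WT and red those labelled KO, and the Cxcr6 points of splenic KO libraries lie at 1596 and 1512 CPM against 174.9 CPM in WT.

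The shares of cells with a UMI were compared by an exact permutation test, which with 2 libraries against 2 cannot give a two-sided p below 0.33. The shares are therefore given as values. Thymic Cxcr5 had a lower thinned share in KO (0.251% against 0.444%) while its log2 difference was above 0 and not called, so no order is read from it. Libraries of a pool were made in the same droplet run, so RNA free in the pool falls on both genotypes, and the lower share of each pair holds what it adds. No cells without these receptors could be set apart in the γδ T sorts to measure it directly.

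**Figure D2:**
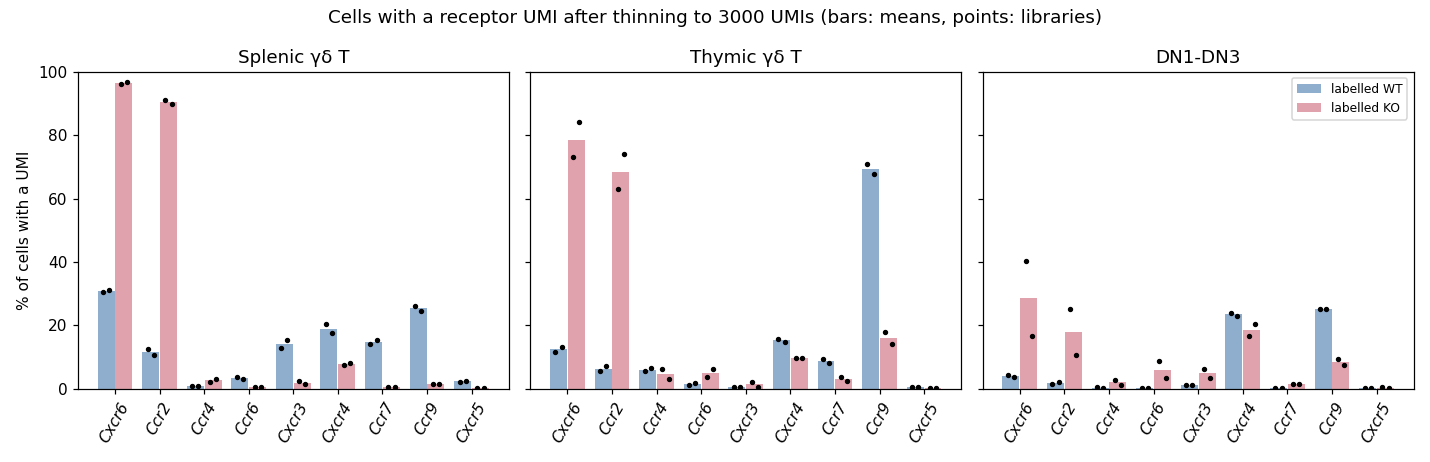
Percent of cells with at least 1 UMI of each receptor after thinning to 3000 UMIs per cell, with bars for the mean and points for the 2 libraries of each genotype in splenic γδ T, thymic γδ T and DN1-DN3 cells. Cxcr6 and Ccr2 go from 30.8% and 11.5% to 96.6% and 90.5% of splenic cells, and Ccr9 falls from 69.3% to 16.1% of thymic γδ T cells.

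An interaction term compared the KO difference in the spleen with that in the thymus. It was called for 6 of 9 genes, against 29.6% of all genes, and always in the direction of a lower splenic value. Cxcr3 (-4.82 ± 0.77, edgeR adjusted p = 0.00159), Ccr6 (-4.51 ± 0.67, edgeR adjusted p = 0.00109) and Cxcr5 (-4.00 ± 0.45, edgeR adjusted p = 0.000230) were the furthest apart. Cxcr3 and Ccr6 were lower in KO spleen and higher in KO thymus. The fall of Ccr7 (-3.32 ± 0.25), Ccr9 (-2.36 ± 0.24) and Cxcr4 (-0.73 ± 0.17) was larger in the spleen, with edgeR adjusted p of 2.87e-05, 0.000144 and 0.00969. The interaction was not called for Ccr2 (-0.86 ± 0.54, edgeR adjusted p = 0.260), Cxcr6 (-1.38 ± 0.52, edgeR adjusted p = 0.0702) or Ccr4 (1.64 ± 0.56, edgeR adjusted p = 0.0510). With the pool as a replicate block Cxcr6 (-1.38, edgeR adjusted p = 0.0493) and Ccr4 (1.72, edgeR adjusted p = 0.0223) were called, and Ccr4 also without the first thymic KO library (2.23, edgeR adjusted p = 0.0273), with RLE size factors (edgeR adjusted p = 0.0472) and with DESeq2 (adjusted p = 0.0133). When only the compared libraries were fitted, 9 of 9 interactions were called (37.7% of all genes), Ccr2 (-0.91, edgeR adjusted p = 0.0198), Cxcr6 (-1.43, 0.000125) and Ccr4 (1.59, 0.0292) included.

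**Figure D3:**
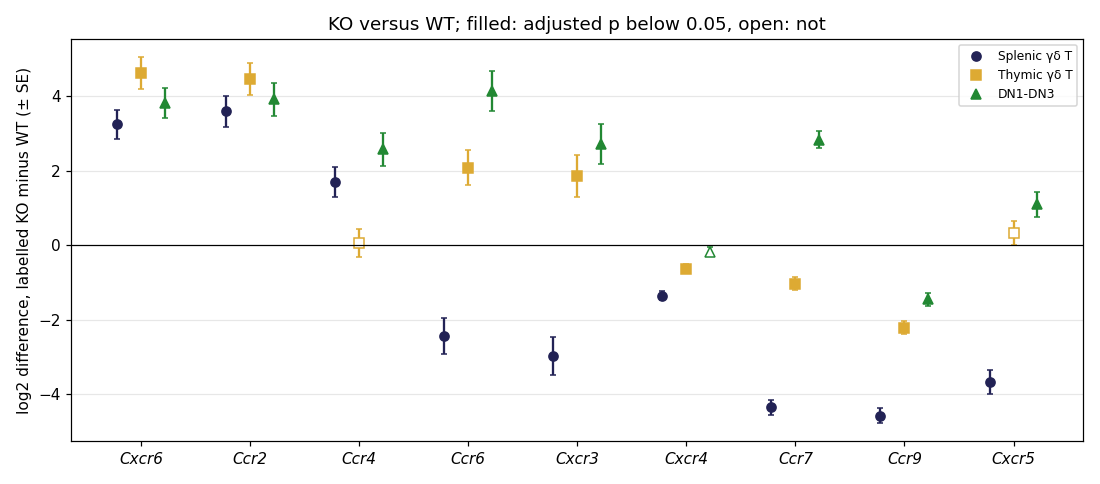
Log2 difference, labelled KO minus WT, with its SE for each receptor in splenic γδ T cells (circles), thymic γδ T cells (squares) and DN1-DN3 cells (triangles), filled where the edgeR adjusted p was below 0.05. Cxcr6 and Ccr2 lie above 0 and Ccr9 below 0 in all 3 compartments, and Ccr6 lies at -2.43, 2.09 and 4.14.

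The WT libraries alone were also compared between compartments. Each compartment had its own pools, so a difference between compartments cannot be told apart from one between droplet runs. Between spleen and thymus it cannot be told apart from the sex of the mice either. Between splenic and thymic γδ T cells 9 of 9 genes differed (48.8% of all genes), with Cxcr3 (log2 difference, spleen minus thymus, 5.36 ± 0.60, edgeR adjusted p = 7.37e-05), Cxcr5 (3.06 ± 0.31) and Cxcr6 (1.95 ± 0.38) higher in the spleen and Ccr4 (-2.53 ± 0.41) and Ccr9 (-2.32 ± 0.17) higher in the thymus. Ccr2 (1.68 ± 0.39), Ccr6 (1.63 ± 0.46), Ccr7 (0.95 ± 0.17) and Cxcr4 (0.42 ± 0.12) were higher in the spleen as well. Between thymic γδ T and DN cells 8 of 9 differed (47.2% of all genes). Ccr7 (log2 difference, γδ T minus DN, 5.45 ± 0.22, edgeR adjusted p = 3.50e-07), Ccr4 (4.12 ± 0.45), Ccr9 (3.31 ± 0.18), Ccr6 (2.31 ± 0.52), Ccr2 (2.12 ± 0.41), Cxcr6 (1.68 ± 0.38) and Cxcr5 (0.96 ± 0.33) were higher in γδ T cells, and Cxcr4 was higher in DN cells (-0.42 ± 0.12, edgeR adjusted p = 0.0140). Cxcr3 did not pass between thymic γδ T and DN cells (-0.55 ± 0.58, edgeR adjusted p = 0.472), with 1.37 to 2.25 CPM in the 4 thymic WT libraries. Both comparisons share the WT libraries of thymic γδ T cells. Leaving out 1 library ended the call of Ccr2 (0.0538 without the first thymic WT library), Ccr6 (0.0746 and 0.105 without the first splenic or thymic one) and Cxcr4 (0.117 and 0.0573 without the first splenic or the second thymic one) between spleen and thymus. It ended those of Cxcr4 (0.0508 to 0.0703) and Cxcr5 (0.0837 to 0.153) between γδ T and DN cells whichever library was left out, all as edgeR adjusted p.

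Cells were then divided by Trgv6, which encodes the Vγ6 segment of γδT17 cells of early origin, into those with at least 1 UMI and those with 0. Trgv6 positive cells numbered 403 and 528 in splenic WT, 4939 and 7529 in splenic KO, 154 and 200 in thymic WT and 3149 and 3930 in thymic KO libraries. Trgv6 was the leading γ segment in only 188 and 229 cells of the splenic and 41 and 57 cells of the thymic WT libraries. In the KO libraries it led in 3422 and 4613 splenic and 2028 and 2691 thymic cells. The Trgv6 positive class may thus hold different cells in KO and WT. A count of 0 does not mark a cell without Vγ6, since a few UMIs of a γ segment can go undetected with 3′ chemistry: zero cells were 36.8% and 35.5% of the splenic and 53.7% and 48.5% of the thymic KO cells, and how many of them carry Vγ6 was not tested. The classes are thus cells with and without a detected UMI, not Vγ6 cells and others. DN libraries held 24 to 91 such cells each and were not tested. Positive cells were the deeper ones in the spleen (median UMIs of 6200 and 6144 against 4882 and 4986 in WT, and of 5760 and 5663 against 4998 and 4961 in KO). They were deeper in the thymus too (7555 and 7179 against 6838 and 6841 in WT, and 5762 and 5952 against 5721 and 5287 in KO).

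In splenic WT libraries Ccr2, Cxcr6, Ccr6 and Ccr4 were higher in the Trgv6 positive cells and Ccr7, Cxcr3 and Cxcr4 were lower. Of the 9 genes 7 passed in the comparison of positive with zero cells, made within libraries (28.3% of all genes). Ccr2 was at 570.4 and 423 CPM in positive and 54.1 and 46.2 CPM in zero cells (log2 difference 3.33 ± 0.09, edgeR adjusted p = 1.07e-08), and Cxcr6 at 689.7 and 586 against 139 and 148 CPM (2.18 ± 0.10, edgeR adjusted p = 2.57e-07). Ccr6 was at 54.3 and 51.4 against 15.2 and 11.2 CPM (2.05 ± 0.44, edgeR adjusted p = 0.0481, called in 5 of 9 alternatives and lost without either WT library, at 0.421 and 0.448). Ccr4 was also higher (1.38 ± 0.25), while Ccr7 (-1.19 ± 0.15), Cxcr3 (-0.56 ± 0.13) and Cxcr4 (-0.54 ± 0.10) were lower in positive cells, at edgeR adjusted p of 0.00222, 0.000306, 0.0106 and 0.00207. Cxcr3 was not called after thinning to 3000 UMIs (-0.12, edgeR adjusted p = 0.743) or with the leading Trgv gene (-0.18, 0.419), nor Ccr6 with the leading Trgv gene (0.0820) or without a count filter (0.185). Without the library as a block Cxcr3 was not called (edgeR adjusted p = 0.516) and Ccr9, otherwise not called (-1.03 ± 0.42, edgeR adjusted p = 0.225), was (0.0496). Ccr9 was also called without either KO library (0.00184 and 0.00111), and Cxcr5 without the second WT library (-2.03, edgeR adjusted p = 0.0101).

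In splenic KO libraries Ccr2 and Cxcr6 were at like levels in both classes, where zero cells that carry undetected Trgv6 cannot be told apart from other cells. Only Ccr7 passed (1 of 9, with 0.136% of all genes called), at 1.18 and 1.37 CPM in positive and 6.36 and 3.87 CPM in zero cells (-1.92 ± 0.21, edgeR adjusted p = 0.0189, and 0.0529 without the library as a block). Ccr2 was at 961 and 845 CPM in positive and 886 and 841 CPM in zero cells (0.06 ± 0.08, edgeR adjusted p = 0.917), and Cxcr6 at 1617 and 1511 against 1554 and 1514 CPM (0.02 ± 0.10, edgeR adjusted p = 0.981). Ccr9 (-1.56 ± 0.58), Cxcr5 (-1.38 ± 0.46), Ccr6 (-1.24 ± 0.61), Cxcr3 (-0.93 ± 0.14, edgeR adjusted p = 0.0612), Cxcr4 (-0.25 ± 0.08) and Ccr4 (0.23 ± 0.13) did not pass either. The test of the change of this class difference between genotypes called 3 of 9 genes (17.8% of all genes): Ccr2 (-3.27 ± 0.12, edgeR adjusted p = 1.22e-07), Cxcr6 (-2.16 ± 0.14, edgeR adjusted p = 4.36e-06) and Ccr4 (-1.15 ± 0.27, edgeR adjusted p = 0.0167, called in 3 of 9 alternatives). Leaving out 1 library moved these counts: 4 genes passed between the KO classes without either WT library (Ccr7, Cxcr3, Cxcr4 and Cxcr5) and 3 without the second KO library (Ccr6, Ccr7 and Ccr9), and the change between genotypes was called for 5 genes without the first WT or the second KO library. The change in Ccr4 was lost without the second WT library or either KO library (edgeR adjusted p = 0.110 to 0.269) and, without the block, at 0.0545, while that in Ccr6 (-3.30 ± 0.75, edgeR adjusted p = 0.0774) was called in 5 of 9 alternatives: without the block (-3.41, 0.0226), without either KO library (-2.16 and -4.41), with DESeq2 (-3.28, adjusted p = 2.3e-06) and after thinning (-2.68, 1.86e-12). Ccr7 (-0.73 ± 0.26, edgeR adjusted p = 0.0894), Ccr9 (-0.54 ± 0.72), Cxcr3 (-0.37 ± 0.20), Cxcr5 (-0.43 ± 0.59) and Cxcr4 (0.29 ± 0.12) did not pass, though Ccr7 and Cxcr4 were each called in 2 of 9 alternatives (Cxcr4 at 0.87 after thinning, edgeR adjusted p = 0.000151) and Ccr9 and Cxcr3 each in 1.

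Within splenic Trgv6 positive cells 8 of 9 genes differed between KO and WT (22.1% of all genes), but the rise of Ccr2 was 0.84 ± 0.18 (edgeR adjusted p = 0.0101) and that of Cxcr6 1.27 ± 0.16 (edgeR adjusted p = 0.000493) on the log2 scale. Ccr6 went the other way, from 54.3 and 51.4 CPM to 1.43 and 2.08 CPM (-4.90 ± 0.19, edgeR adjusted p = 2.13e-06). Ccr9 (-4.41 ± 0.27), Ccr7 (-4.25 ± 0.24), Cxcr5 (-3.50 ± 0.59), Cxcr3 (-2.92 ± 0.54) and Cxcr4 (-1.0 ± 0.17) were lower there too, and Cxcr3 was not called with the pool as a block (edgeR adjusted p = 0.0527) or without either WT library (0.216 and 0.376), nor Cxcr5 without the second WT library (0.116) or Cxcr4 after thinning (-0.61, 0.0792). Ccr4 did not pass (0.47 ± 0.23, edgeR adjusted p = 0.178). In Trgv6 zero cells, which may hold different cells in KO and WT, 8 of 9 differed (57.1% of all genes), with Ccr2 higher by 4.15 ± 0.12 (edgeR adjusted p = 6.25e-08) and Cxcr6 by 3.46 ± 0.10 (edgeR adjusted p = 5.83e-08). Ccr4 was higher as well (1.62 ± 0.22, edgeR adjusted p = 0.000322), and Ccr7 (-3.45 ± 0.21, 2.64e-05), Cxcr5 (-2.97 ± 0.34, 0.000241) and Cxcr4 (-1.27 ± 0.11, 1.84e-05) were lower. Ccr6 did not pass in zero cells (-1.47 ± 0.66, edgeR adjusted p = 0.157), but was called in 4 of 9 alternatives, among them the pool as a block (-1.55, edgeR adjusted p = 0.0406), the leading Trgv gene (-1.75, 0.0469) and thinning (-2.54, 3.89e-05), while Cxcr3 (-2.52 ± 0.40, edgeR adjusted p = 0.0118) was lost with the pool as a block (edgeR adjusted p = 0.133). Leaving out either WT library ended the calls of Cxcr3 (0.172 and 0.187) and Ccr9 (-3.79 ± 0.32, edgeR adjusted p = 0.00115, then 0.0897 and 0.0819), and without the first KO library Ccr6 was called (-2.54, 0.000634).

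In thymic WT libraries Ccr6 and Ccr2 were higher in the Trgv6 positive cells. Ccr6 (24.7 and 25.5 CPM in positive against 4.04 and 5.67 CPM in zero cells, 2.37 ± 0.21, edgeR adjusted p = 1.79e-05) and Ccr2 (104 and 122 against 21.1 and 26.0 CPM, 2.28 ± 0.24, edgeR adjusted p = 0.0414) passed, 2 of 9 where 1.1% of all genes did. Without the library as a block Ccr6 had an edgeR adjusted p of 0.0510, and without either WT library Ccr2 had one of 0.0816 and 0.316. Cxcr6 was at 162 and 184 against 42.7 and 46.1 CPM and did not pass (1.97 ± 0.27, edgeR adjusted p = 0.132), though it did in 7 of 9 alternatives, among them those without the block (edgeR adjusted p = 0.00636) and without either KO library. Cxcr3 (1.71 ± 0.49, edgeR adjusted p = 0.144) was called without the second KO library (edgeR adjusted p = 0.0338). Ccr4 (0.27 ± 0.17), Ccr7 (-0.24 ± 0.17), Ccr9 (-0.14 ± 0.07), Cxcr4 (0.02 ± 0.11) and Cxcr5 (-0.24 ± 0.90) did not pass, though Ccr9 was called with the leading Trgv gene (-0.87, edgeR adjusted p = 0.000718).

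In thymic KO cells all 9 of 9 genes differed between the classes (35.2% of all genes). Ccr9 was at 59.7 and 43.6 CPM in positive and 328 and 259.7 CPM in zero cells (-2.46 ± 0.08, edgeR adjusted p = 3.37e-12), and Ccr7 at 3.29 and 2.22 against 27.3 and 20.3 CPM (-3.06 ± 0.15, edgeR adjusted p = 4.84e-10). Cxcr6 was at 1575 and 1373 against 566 and 866 CPM (1.13 ± 0.22, edgeR adjusted p = 0.0315) and Ccr2 at 711 and 701 against 265 and 422 CPM (1.14 ± 0.17, edgeR adjusted p = 0.00906). Positive cells thus held more Cxcr6 and Ccr2 and less Ccr9 and Ccr7 in both libraries. Ccr6 was higher (0.67 ± 0.12) and Cxcr3 (-2.28 ± 0.27), Cxcr5 (-2.08 ± 0.43), Ccr4 (-1.10 ± 0.11) and Cxcr4 (-0.27 ± 0.09) were lower in positive cells. After thinning to 3000 UMIs 6 of 9 genes were called (18.8% of all genes): Ccr6 (0.15, edgeR adjusted p = 0.598), Cxcr4 (-0.011, 0.971) and Cxcr5 (-1.58, 0.158) were lost. Cxcr4 was called in 3 of 9 alternatives. The calls of Ccr6 and Cxcr4 were lost without the library as a block (edgeR adjusted p = 0.117 and 0.0564). Without the first KO library those of Cxcr4 (0.114) and Cxcr5 (0.127) were lost, and without the second that of Cxcr4 (0.213).

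The class difference changed between thymic WT and KO for 5 of 9 genes (8.01% of all genes): Cxcr3 (-3.98 ± 0.61), Ccr7 (-2.82 ± 0.25), Ccr9 (-2.32 ± 0.10), Ccr6 (-1.70 ± 0.23) and Ccr4 (-1.37 ± 0.21). WT positive cells held only 6 and 9 Cxcr3 UMIs, on which the Cxcr3 difference between genotypes in positive cells rests as well. Without the library as a block 2 of 9 were called (4.67% of all genes), Ccr7 and Ccr9, and Cxcr3, Ccr6 and Ccr4 were lost (edgeR adjusted p = 0.0650, 0.0989 and 0.255). Thinning and the leading Trgv gene each ended the calls of Cxcr3 (0.485 and 0.537) and Ccr4 (0.163 and 0.605). Without the second WT library Cxcr3 was lost (0.0912). Ccr2 (-1.14 ± 0.29, edgeR adjusted p = 0.118) and Cxcr6 (-0.84 ± 0.34, 0.324) did not pass, but were called in 6 and 5 of 9 alternatives, among them thinning (-2.23 and -1.77), the leading Trgv gene (-2.59 and -2.05), DESeq2 and either KO library left out. Cxcr4 (-0.29 ± 0.14) and Cxcr5 (-1.84 ± 1.16) did not pass. Between genotypes, 6 of the 8 genes tested differed in thymic Trgv6 positive cells (41.9% of all genes), with Cxcr6 at 3.18 ± 0.10, Ccr2 at 2.73 ± 0.10, Ccr9 at -3.85 ± 0.18, Ccr7 at -3.09 ± 0.31, Cxcr3 at -1.51 ± 0.53 and Cxcr4 at -0.84 ± 0.13, while Cxcr5 did not reach the count filter. This class may hold different cells in KO and WT. In WT its Ccr9, at 879 and 700 CPM, was near that of the zero cells (943 and 809 CPM). The Cxcr4 call was lost after thinning (-0.45, edgeR adjusted p = 0.474) and with the leading Trgv gene (-0.59, 0.129). The Cxcr3 call (edgeR adjusted p = 0.0474) held in 2 of the 5 alternatives that tested it and was lost without either WT library (0.113 and 0.230). Ccr6 did not pass (0.10 ± 0.25, edgeR adjusted p = 0.777), but with the leading Trgv gene it was called as lower in KO. Its sign turned after thinning as well (values in the closing section). Ccr4 did not pass either (-0.92 ± 0.39, edgeR adjusted p = 0.102). It was called with the pool as a block (-0.99, edgeR adjusted p = 0.00786) and was at -1.51 without the first KO library.

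In thymic Trgv6 zero cells, with the same limit, 6 of 9 differed (42.5% of all genes): Cxcr6 (4.11 ± 0.24), Ccr2 (3.97 ± 0.27), Cxcr3 (2.64 ± 0.57) and Ccr6 (1.87 ± 0.32) were higher, and Ccr9 (-1.48 ± 0.14) and Cxcr4 (-0.49 ± 0.07) lower. Ccr7 was not called there (-0.23 ± 0.14, edgeR adjusted p = 0.236), with 27.3 and 20.3 CPM in KO against 30.7 and 28.9 CPM in WT. The count fell to 3 without the first WT library, when Ccr6 (0.0654), Cxcr3 (0.102) and Cxcr4 (0.0544) were lost as edgeR adjusted p, and Cxcr3 was lost without the second (0.127). Ccr7 was called, as lower in KO, after thinning to 3000 UMIs, where 7 of 9 genes passed (4 higher, 3 lower, with 47.9% of all genes called). It was also called without the first KO library (-0.43). Ccr4 (0.51 ± 0.29, edgeR adjusted p = 0.217) and Cxcr5 (1.01 ± 0.37, 0.0811) were called without the second (0.88, 8.1e-06 and 1.39, 0.00162).

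**Figure D4:**
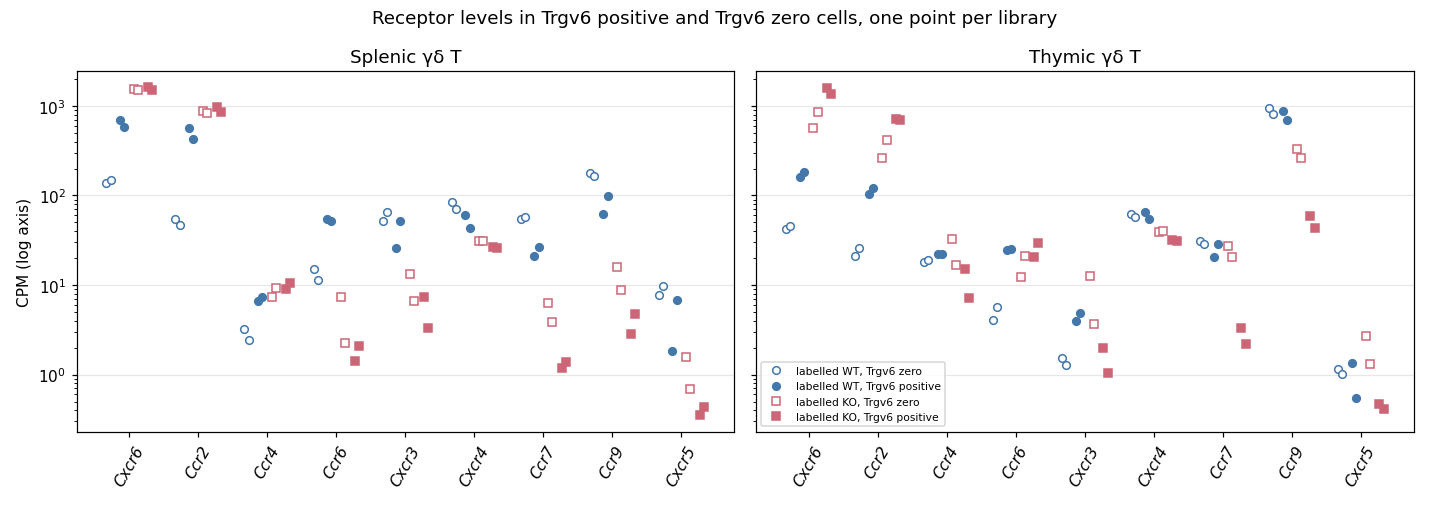
CPM of each receptor on a log axis in Trgv6 positive (filled) and Trgv6 zero (open) cells of each library, labelled WT (circles) or KO (squares), for splenic and thymic γδ T cells. Splenic Ccr2 lies at 570.4 and 423 CPM in WT positive cells and 54.1 and 46.2 CPM in WT zero cells, but at 841 to 961 CPM in both KO classes.

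Divisions by other single genes, described without a test, placed the receptors among the cells. Splenic Cxcr3 was higher in WT cells with Tbx21, the type 1 regulator, at 89.6 and 96.2 CPM against 39.4 and 52.6 CPM without it. Cells with Scart2, a scavenger receptor gene of some γδ T cells, kept some Ccr9 in splenic KO libraries, at 231 and 39.2 CPM against 3.41 and 5.29 CPM, and numbered 121 and 222 against 919 and 1671 in WT.

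Cd24a, a gene of immature thymic γδ T cells, separated the thymic KO cells further. Cells with Cd24a held Cxcr6 at 228 and 232 CPM and Ccr9 at 620 and 515 CPM, and cells without it held Cxcr6 at 1134 and 1224 CPM and Ccr9 at 151 and 109 CPM. Cd24a positive cells numbered 440 and 356 in KO against 1419 and 1935 in WT libraries. In WT cells Ccr9 was lower with Cd24a than without, at 643 and 569 against 1101 and 964 CPM.

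Most cells with a Ccr2 UMI also held Cxcr6 in the spleen, but not the reverse in WT. In splenic WT libraries 72.8% and 72.6% of the cells with a Ccr2 UMI also held Cxcr6 (thinned), against 24.6% and 26.1% of the other cells, and 9.04% and 7.72% of all cells held both. Cxcr6 was held by 30.6% and 31.0% of these WT cells. In KO libraries 89.0% and 87.8% held both, near the 87.7% and 87.1% given by the 2 shares if they were independent. In thymic γδ T cells the share with both was 2.26% and 2.95% in WT and 58.8% and 71.1% in KO libraries. Of the 9 receptors, 2 were detected in 79.2% and 77.2% of splenic KO cells and in 25.4% and 24.2% of WT cells, and none in 0.737% and 0.595% against 25.2% and 26.4%.

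Over the 12 libraries the levels of Ccr2 were most like those of Cxcr6 (Pearson r of log2(CPM + 1) = 0.997 among 9894 genes), then Cd44 and Rnf43 (both 0.996), and Cxcr6 was most like Rnf43 (0.998). Ccr7 was most like Vps37b (0.987), Ccr9 like Prdm11 (0.975), Cxcr3 like the NK receptor gene Klrd1 (0.974), Cxcr4 like Hdgfl3 (0.987), Cxcr5 like Hvcn1 (0.980), Ccr4 like Lpar6 (0.947) and Ccr6 like Ctsw (0.930). The 12 points share pools and fall into groups by compartment and genotype, so these values are a description.

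The run from Ccr9 to Ccr2 on chromosome 9 holds, in RefSeq order, Ccr9, Fyco1, Cxcr6, Xcr1, Ccr1, Ccr1l1, Ccr3 and Ccr2. It was looked at after values had been seen, and Ccr4, also on chromosome 9, lies outside it. Ccr1, a receptor of CCL3 and CCL5, went with Ccr2 and Cxcr6: it was at 1.14 ± 0.00143 (SD, n = 2) CPM in WT and 66.4 ± 2.01 CPM in KO spleen (5.95 ± 0.51, edgeR adjusted p = 7.74e-06) and at 0.175 ± 0.0890 and 22.4 ± 3.56 CPM in the thymus (7.15 ± 0.61, edgeR adjusted p = 1.58e-05). Fyco1, which lies between Ccr9 and Cxcr6 and encodes an adaptor of vesicle transport, was also higher (0.82, 1.47 and 0.78 in spleen, thymus and DN cells). Xcr1 and Ccr3 stayed below 1 CPM but were called higher in KO spleen (edgeR adjusted p = 0.00196 and 0.00975) and thymus (0.00956 and 0.00816). Ccr1l1 was not tested.

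**Figure D5:**
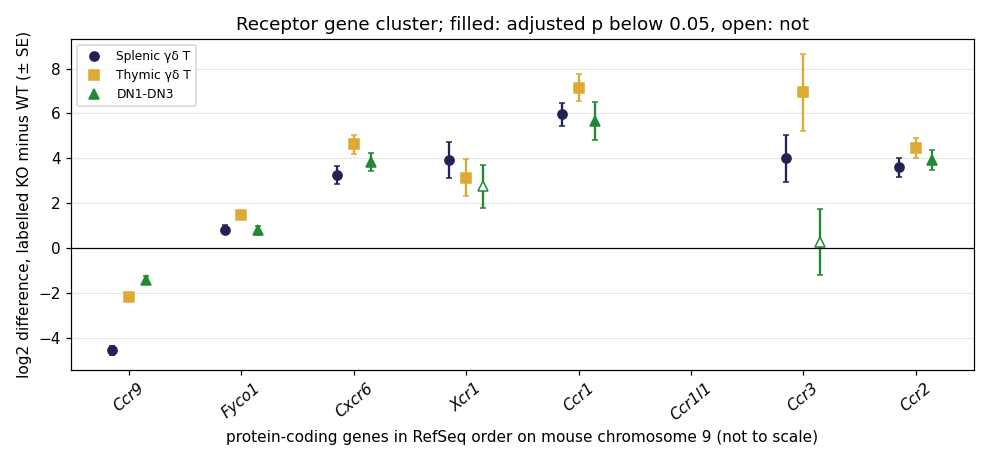
Log2 difference, labelled KO minus WT, with its SE for the protein-coding genes next to each other on mouse chromosome 9 in RefSeq order (not to scale), filled where the edgeR adjusted p was below 0.05. Ccr9 lies at -4.57, -2.21 and -1.44 and Cxcr6, Ccr1 and Ccr2 lie above 3 in all 3 compartments, while Xcr1 and Ccr3 were below 1 CPM and Ccr1l1 was not tested.

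The partners of the receptors were counted in 4 lists. Of 14 other chemokine receptor genes 11 were tested, and 5 were higher and 1 lower in KO spleen (median log2 difference 0.49), 7 and 1 in the thymus (1.79) and 7 and 0 in DN cells (2.20). Those called higher in spleen and thymus include Xcr1 and Ccr3, which were below 1 CPM. Over all genes 54.8%, 49.7% and 23% were called in spleen, thymus and DN cells, so the splenic count of 6 of 11 was at the background, and the counts of the other lists are read against the same shares. Besides Ccr1, Ackr3, the scavenger receptor for CXCL12, was at 0.708 ± 0.0743 CPM in WT and 23.6 ± 7.07 CPM in KO spleen (5.16 ± 0.41, edgeR adjusted p = 5.63e-06), and Ccr10 was higher in all 3 compartments (1.92, 1.79 and 4.04). Ccr8, a receptor for CCL1, was at 0.363 ± 0.150 CPM in WT and 10.9 ± 7.70 CPM in KO DN cells (4.87 ± 0.67, edgeR adjusted p = 0.000833). Cx3cr1 was lower in the thymus, from 23.5 ± 3.21 to 6.23 ± 2.21 CPM (-1.80 ± 0.35, edgeR adjusted p = 0.00186).

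Of 35 chemokine genes 11 were tested, with 2 higher and 5 lower in the spleen, 2 and 4 in the thymus and 4 and 1 in DN cells (54.8%, 49.7% and 23% of all genes). Ccl5, a ligand of CCR1, fell from 2218 ± 122 to 138 ± 11.1 CPM in the spleen (-3.91 ± 0.24, edgeR adjusted p = 1.16e-06), as did Xcl1, from 95.5 ± 4.32 to 4.6 ± 1.09 CPM (-4.27 ± 0.36, edgeR adjusted p = 7.03e-06). Ccl4 was lower too, from 16.3 ± 5.51 to 2.14 ± 0.212 CPM (-2.84 ± 0.25, edgeR adjusted p = 6.72e-06). Ccl5 and Xcl1 were higher in KO DN cells (Ccl5 2.19 ± 0.23, Xcl1 3.06 ± 0.34). Ccl25, the ligand of CCR9, was lower in the spleen (-0.52 ± 0.10, edgeR adjusted p = 0.0012) and the thymus (-0.28 ± 0.10, edgeR adjusted p = 0.0337).

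Of 16 genes of G protein signalling and cell movement 11 were higher and 1 lower in the spleen (median 0.62), 7 and 3 in the thymus (0.16) and 2 and 0 in DN cells (0.20), the last below the 23% of all genes. Gng2, a G protein γ subunit, rose in all 3 (2.08, 1.68 and 2.01), as did Dock2, which activates Rac in migrating lymphocytes (0.77, 0.96 and 0.87). In the spleen Plcb3, a phospholipase C gene (1.69 ± 0.16), Gnb2, a G protein β subunit gene (1.0 ± 0.10), and Pik3cg, a phosphoinositide kinase gene (0.96 ± 0.11), rose. Of 14 genes that uncouple the receptors 6 were higher and 5 lower in the spleen, 5 and 4 in the thymus and 8 and 1 in DN cells, against 54.8%, 49.7% and 23% of all genes. The receptor kinase gene Grk3 was at 4.28 ± 1.40 and 74.6 ± 5.63 CPM in the spleen (4.23 ± 0.27, edgeR adjusted p = 1.35e-06), Arrb1, a β-arrestin gene, rose by 2.47 ± 0.28, and Rgs3 (-1.88 ± 0.18) and Rgs10 (-1.69 ± 0.14), regulators of G protein signalling, were lower. Rgs18 was lower in the thymus, from 17 ± 0.856 to 1.57 ± 0.254 CPM (-3.32 ± 0.22, edgeR adjusted p = 4.94e-06). Rgs1 rose most in the thymus, from 24.8 ± 1.40 to 285.6 ± 18.6 CPM (3.65 ± 0.29, edgeR adjusted p = 1.21e-05).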

How the data were processed

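The deposited values are raw UMI counts for each gene in each cell, which the authors made with Cell Ranger 8.0.1 on GRCm39 (submitters' processing notes) and split by genotype with hashsolo before deposit. This tool also marks doublets of different hashtags, and no doublet caller was run here. The filter kept 96911 of 97404 barcodes, those with 500 or more UMIs, 200 or more genes and no more than 20% of counts from mitochondrial genes. No barcode was shared by the libraries of a pool, and those of different pools shared 34 or fewer. The hashtag libraries were used only through the deposited split.

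Counts were summed per library, or per class of cells, and tested with edgeR 4.0.16 (quasi-likelihood F test, robust, TMM, default low count filter, R 4.3.3) and Benjamini-Hochberg adjustment over all genes tested. Ribosomal, mitochondrial and Gm-numbered genes (9535) were left out. The study tested cells as replicates, which was not done here. Whole libraries were fitted together, classes of cells on the libraries of 1 compartment. SE is the log2 difference divided by the root of F. The script was tested on simulated data.

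Every member was named in every comparison of whole libraries and of Trgv6 classes. From each list, up to 4 called genes with the largest difference in any compartment and at least 10 CPM in 1 genotype were named. Cx3cr1, Dock2, Rgs3 and Rgs10 were added after their values had been seen. By likeness, the rule took the 3 genes with the highest r among those of at least 5 CPM, of which the first is given. The members and lists were chosen with earlier results of these data known. Genes on chromosome 9 were chosen after their values had been seen.

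Pool numbers mark a shared droplet run and so pair the libraries. Deviations from the group means of the libraries of a pool correlated at r = 0.290 in spleen, 0.0629 in thymus and 0.176 in DN cells over 14923 genes. Alternatives were DESeq2 1.42.0, RLE size factors, no count filter, each library left out, only the compared libraries, all genes kept, cells with B cell genes left out, the replicate block, the leading Trgv gene and thinning. Python 3.11.15 with numpy 2.4.6, pandas 2.3.3, scipy 1.17.1 and matplotlib 3.10.9 did the rest.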

Additional observations from a re-analysis of the deposited data

Results flagged for a closer look

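The difference between KO and WT changed between splenic and thymic γδ T cells for 6 receptors by the interaction test (edgeR adjusted p given in the report). On the log2 scale the splenic difference minus the thymic one was -4.82 for Cxcr3, -4.51 for Ccr6, -4.00 for Cxcr5, -3.32 for Ccr7, -2.36 for Ccr9 and -0.73 for Cxcr4. Tissue and sex of the mice cannot be told apart in these values.

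The difference between Trgv6 positive and Trgv6 zero cells changed between WT and KO in the spleen for Ccr2 (-3.27), Cxcr6 (-2.16) and Ccr4 (-1.15). It changed in the thymus for Cxcr3 (-3.98), Ccr7 (-2.82), Ccr9 (-2.32), Ccr6 (-1.70) and Ccr4 (-1.37). The thymic WT positive cells held only 6 and 9 Cxcr3 UMIs. Without the library as a block only Ccr7 and Ccr9 were called in the thymus, and the splenic change of Ccr4 was lost in most alternatives. The thymic changes of Ccr2 and Cxcr6 were called in several alternatives only.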

How the results depend on the processing

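Of the alternative values for single receptors, 1231 kept direction and call, 90 lost the call, 67 gained it and 29 changed sign. Counts of receptors called stayed within 1.5 times the reported count in 142 alternatives and not in 17. Leaving out 1 library, where the lone library is assumed to vary like the others, gave 1 to 4 of 9 genes between splenic KO classes (1 reported), 2 to 5 for the change between genotypes in the spleen (3), 1 to 4 between thymic WT classes (2) and 3 to 8 in thymic Trgv6 zero cells (6, and 3 without the first WT library). The share of all genes called moved as well when 1 library was left out. Without the replicate block 0 genes were called between splenic KO classes (0% of all genes). For the change in the thymus 2 were called then (4.67% of all genes, 5 reported). Between splenic KO classes no count filter and DESeq2 each gave 2 (0.452% and 0.793% of all genes). Between thymic WT classes no count filter and the leading Trgv gene each gave 4 (2.57% and 3.69% of all genes). In DN cells, 5 were called without Trac cells (11.8% of all genes) and 4 in Ptcra and Il2ra cells (14.0%), where 8 were reported (23%). Both restrictions were chosen after seeing the data. The cause was not tested.

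Of the log2 differences given here, the values with the changed sign were not called, except where given, though the other end of a range may be. Leaving out each library gave Ccr4 -0.522 to 0.485 and Cxcr5 -0.189 to 0.729 in thymic γδ T cells, and Ccr4 -0.0402 to 0.882 in thymic Trgv6 zero cells. Between splenic KO classes it gave Ccr2 -0.00102 to 0.100 and Cxcr6 -0.0116 to 0.0406. The splenic change ranged from -1.41 to 0.174 for Ccr9, -0.586 to 0.0166 for Cxcr3 and -1.14 to 0.641 for Cxcr5. Cxcr4 (-0.0790 to 0.118) and Cxcr5 (-0.876 to 0.227) changed sign between thymic WT classes, and Ccr6 in thymic Trgv6 positive cells (-0.227 to 0.33). The pool as a replicate block gave Ccr4 in thymic γδ T cells -0.0120. The leading Trgv gene gave Ccr4 between splenic KO classes -0.00283, the splenic change of Ccr9 0.96, Ccr4, Ccr7 and Cxcr4 between thymic WT classes -0.66, 0.0115 and -0.24, the thymic change of Cxcr5 4.0 and Ccr6 in thymic Trgv6 positive cells -1.23 (edgeR adjusted p = 0.0188). Thinning gave the splenic change of Ccr9 0.33 and Cxcr5 0.20, Cxcr4 between thymic WT classes -0.22, the thymic change of Cxcr4 0.21 and Cxcr5 5.27, Ccr6 in thymic Trgv6 positive cells -0.54 and Cxcr5 in thymic Trgv6 zero cells -0.33. In DN cells Cxcr4 was at 0.0106 without Trac cells and 0.0463 in Ptcra and Il2ra cells. The block changed no call other than those given beside the results. With 2 libraries per group small differences can be missed, more so at low levels such as those of Cxcr5 in the thymus (0.838 to 1.68 CPM). What size of difference could be detected was not tested.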
